A study of Homo sapiens with 6 samples.

Results

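The cytosolic and mitochondrial chaperones and the heat shock factors that control many of them were followed in SH-SY5Y cells, a human neuroblastoma line, carrying a short hairpin RNA against TARDBP. TARDBP codes for TDP-43, an RNA-binding protein found in aggregates in amyotrophic lateral sclerosis. The 38 genes were taken by symbol from the 27961 genes of the count tables. They comprised 7 HSP70 and HSP110 genes, 3 HSP90 genes, 9 HSP40 genes, 3 small heat shock proteins, 5 BAG genes, 2 heat shock factors, 7 subunits of the cytosolic chaperonin TRiC and the 2 genes of the mitochondrial chaperonin.

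Chaperones bind proteins that are not folded and help them fold, move between partners or reach degradation. HSP70 does this in cycles of ATP use, with HSP40 proteins delivering clients and BAG proteins releasing nucleotide, and passes some clients to HSP90. TRiC folds actin and tubulin in a closed chamber, and HSPD1 (HSP60) with its lid HSPE1 (HSP10) does the same in the mitochondrial matrix. Small heat shock proteins hold unfolded proteins without using ATP. HSF1 is the main transcription factor of the heat shock response and binds heat shock elements, which are inverted repeats of the unit GAA.

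The 3 groups had 2 libraries each. The TARDBP hairpin was TRCN0000016038, the only hairpin against this gene, so effects of the knockdown and of this hairpin sequence cannot be told apart. Control hairpin 2 was SHC016 and control hairpin 1 was SHC007, both from Sigma. All cells were infected with lentivirus and selected with puromycin, and total RNA was depleted of ribosomal RNA before strand-specific libraries were made. Nothing in the labels tells if replicate libraries were grown as separate cultures, and p-values then cover only the variation among these 6 libraries, possibly technical. In bulk RNA, fewer cells of a kind and less RNA per cell cannot be told apart.

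Libraries held 18605745 to 21698339 counts, and levels are given in CPM, counts relative to the TMM-scaled library total, which are not divided by gene length. TARDBP stood at 18.9 and 24.0 CPM with its hairpin, against 92.7 and 81.5 CPM with control hairpin 2 and 80.9 and 72.4 CPM with control hairpin 1. Its log2 change was -1.93 ± 0.13 (SE, adjusted p = 1.68e-05 against the mean of both controls, by the quasi-likelihood test of edgeR, Benjamini-Hochberg adjusted). Of 9 noradrenergic neuroblastoma markers, 8 were well counted in every library. The exception was TH, at 0 to 3 counts. Their summed level was 828 to 914 CPM with the TARDBP hairpin, 1233 and 1419 CPM with control hairpin 2, and 1824 and 2029 CPM with control hairpin 1. CD3E, CDH5, KRT5, KRT14, MOG and AIF1, which mark immune, endothelial, epithelial and glial cells, had 0 counts in all 6 libraries. Other markers on the same lists moved with the hairpins. EPCAM, an epithelial gene, had 65 and 132 counts with the TARDBP hairpin, against 18 and 20 (control hairpin 2) and 23 and 8 (control hairpin 1), a log2 change of 2.57 (adjusted p = 0.000898). VWF, an endothelial gene at 1 to 19 counts, was lower with the TARDBP hairpin (-2.34, adjusted p = 0.00956), a call lost without replicate 1 of the TARDBP hairpin (adjusted p = 0.0763). CD68, a macrophage gene, had 182 and 112 counts with the TARDBP hairpin, against 303 and 398 (control hairpin 2) and 124 and 131 (control hairpin 1). Over each whole list the summed level was 5.82 to 19.2 CPM for immune, 0.155 to 1.18 CPM for endothelial, 0.441 to 7.01 CPM for epithelial and 1.13 to 2.07 CPM for glial markers, and their part in the results was not tested.

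Heat shock elements were searched in promoter windows from 250 bases before to 50 after each transcript start (RefSeq, build GRCh38.p14, a later build than the hg19 of the counts). The 3-unit motif was GAANNTTCNNGAA or TTCNNGAANNTTC, and the 2-unit motif, which lies within it, was GAANNTTC or TTCNNGAA, on both strands. Of the 38 genes 35 had a window, and 6 of these, or 17.1%, held the 3-unit motif, against 0.608% of all 27305 genes in the table. The 2-unit motif lay in 18 of the 35, or 51.4%, against 16.2% of all genes. The sequences below are 30-base stretches around 1 motif of each of the 6 genes with the 3-unit motif, given 5′ to 3′ on the gene's strand with the motif in capitals, since these are the genes whose promoters match most fully.
HSPD1: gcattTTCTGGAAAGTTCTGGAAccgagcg
DNAJA1: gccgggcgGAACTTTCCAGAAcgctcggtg
DNAJB6: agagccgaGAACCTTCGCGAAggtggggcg
HSP90AA1: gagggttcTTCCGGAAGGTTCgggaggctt
HSP90AB1: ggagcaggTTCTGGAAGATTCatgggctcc
HSPA8: cgggccccTTCTGGAAGGTTCtaagatagg

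In GRCh38.p14 these lie at chr2:197500061-197500090 on the minus strand for HSPD1, chr9:33025268-33025297 on the plus strand for DNAJA1, and chr7:157336865-157336894 on the plus strand for DNAJB6. Those of HSP90AA1 (chr14:102087111-102087140, minus strand), HSP90AB1 (chr6:44247770-44247799, plus strand) and HSPA8 (chr11:123062170-123062199, minus strand) complete the set. The HSPD1 element runs on to a further unit and ends 228 bases before the start of one of its transcripts. The following 4 windows hold the 2-unit motif only and belong to genes at the extremes of the changes described below, HSPA1A and HSPA1B among those lower and DNAJB4 and HSPB8 among those higher with the TARDBP hairpin.
HSPA1A: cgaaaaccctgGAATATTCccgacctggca
HSPA1B: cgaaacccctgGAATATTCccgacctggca
DNAJB4: agcatttgctgTTCTAGAAagtacagagac
HSPB8: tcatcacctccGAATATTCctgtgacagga

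These windows lie at chr6:31815426-31815455 for HSPA1A, chr6:31827622-31827651 for HSPA1B, chr1:78004830-78004859 for DNAJB4 and chr12:119178832-119178861 for HSPB8, all on the plus strand. A match describes the letters of a window and is not a bound site.

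With the TARDBP hairpin, chaperone messages were mostly lower. Of the 37 genes with enough counts to test, 25 were called at an adjusted p below 0.05, where 48.2% of all 17163 genes and repeat families tested were. Of these, 20 were lower and 5 higher than the mean of both control hairpins, and 12 genes were not called. Among everything tested, 24.3% were called lower and 23.9% higher. The median log2 change of the 37 was -0.32, and that of everything tested was 0.04. The 38 genes together took 0.598% and 0.606% of all gene counts with the TARDBP hairpin, against 0.873% and 0.908% (control hairpin 2) and 0.730% and 0.801% (control hairpin 1). The gene left untested was the HSP40 gene DNAJA4, for which 3 and 2 reads were counted with the TARDBP hairpin, against 1 and 2 (control hairpin 2) and 2 and 1 (control hairpin 1).

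The control hairpins differed from each other, so each gene was also set against either control alone; the comparisons share libraries and are not independent. Against control hairpin 2, 26 genes were called, as were 50.2% of everything tested, with 23 lower and 3 higher, where 26.2% and 24.0% of everything tested were. Against control hairpin 1, 18 were called, as were 42.9% of everything tested, with 15 lower and 3 higher, where 21.8% and 21.1% were. With upper quartile scaling in place of TMM that split was 13 lower and 6 higher. The genes lower against each control (HSPA1A, HSPA1B, HSPA2, HSPH1, HSP90AA1, HSP90AB1, DNAJA1, DNAJB6, HSF1, TCP1, CCT2, CCT8 and HSPD1) numbered 13 of 37, where 14.0% of everything tested were. DNAJB4 alone was higher against each, where 10.6% of everything tested were. In 17 of the 37 genes both TARDBP hairpin libraries lay below all 4 control libraries, and in 3 (DNAJB4, HSPB8 and HSF2) they lay above them, where 22.8% and 23.3% of everything tested did.

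Of the 25 calls against the mean of both controls, 10 held under all 13 other analyses (other scalings, filters and tools, a replicate block and leaving out any library), namely those of HSPA1A, HSPA1B, HSPH1, HSP90AA1, DNAJA1, DNAJB6, HSF1, TCP1, CCT2 and HSPD1. Treating the 4 control libraries as 1 group, which adds the difference between the control hairpins to the spread, left 10 of the 25 called, all lower.

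**Figure D1:**
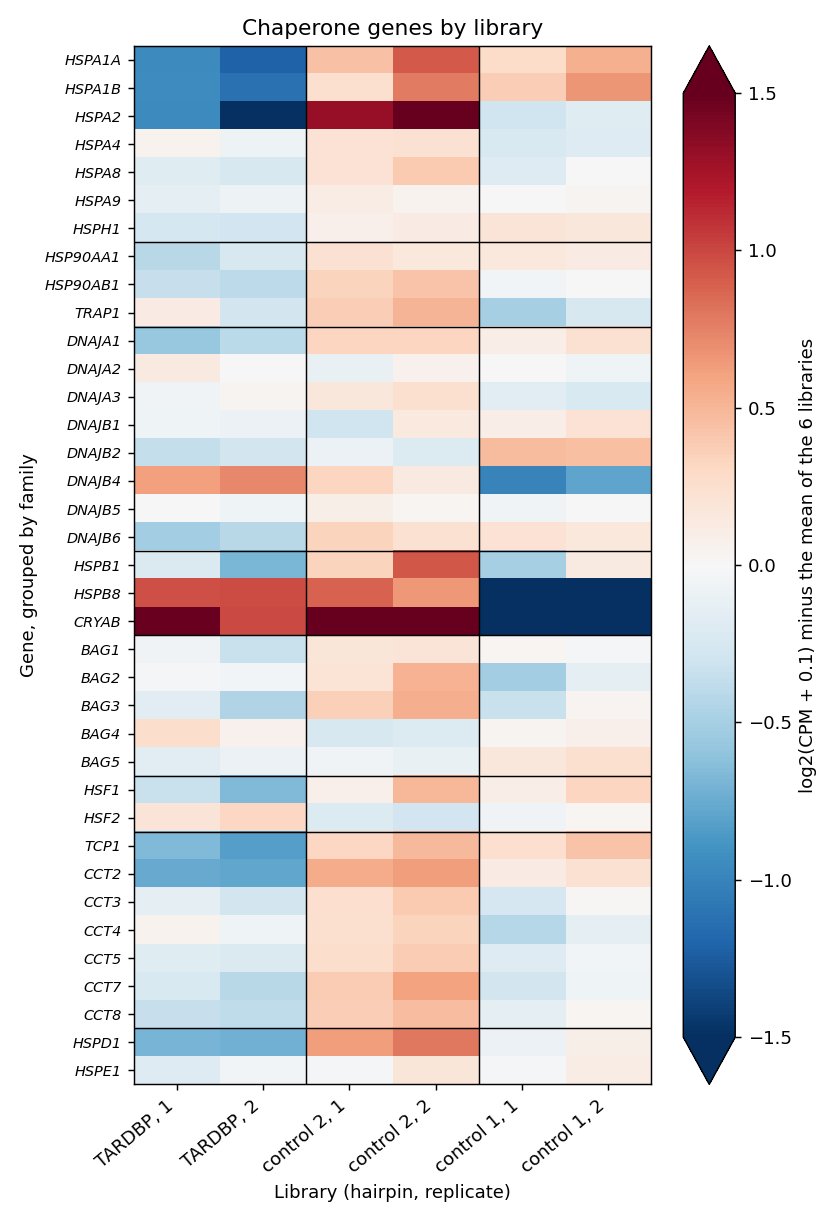
Level of the 37 tested chaperone genes in each of the 6 libraries, as log2(CPM + 0.1) minus the gene's mean over the libraries (colour, saturating at -1.5 and 1.5), with lines between gene families and between hairpins. Most HSP70, HSP90 and TRiC rows and HSPD1 are blue with the TARDBP hairpin and red with control hairpin 2, while HSPB8 and CRYAB are darkest blue with control hairpin 1.

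Among the HSP70 genes the stress-inducible pair fell against either control. HSPA1A stood at 14.0 and 11.7 CPM with the TARDBP hairpin, against 36.8 and 51.3 CPM with control hairpin 2 and 33.0 and 39.3 CPM with control hairpin 1. HSPA1B stood at 22.2 and 19.6 CPM with the TARDBP hairpin, against 50.5 and 73.1 CPM with control hairpin 2 and 55.1 and 67.8 CPM with control hairpin 1. Both genes were low in both TARDBP hairpin libraries, and no control library came near them. Their log2 changes were -1.64 ± 0.17 (adjusted p = 0.000135) and -1.56 ± 0.17 (adjusted p = 0.000178) against the mean of both controls. The coding sequences of the pair are 99.8% identical in the GENCODE 29 annotation, with an unbroken identical stretch of 1709 bases of 1926, so reads cannot be assigned firmly to either. Counted as 1 gene they fell by 1.59 in log2 (SE 0.16, adjusted p = 0.000132), by 1.65 against control hairpin 2 and by 1.53 against control hairpin 1. The ratio of HSPA1B to HSPA1A was 1.59 and 1.68 with the TARDBP hairpin, against 1.37 and 1.43 (control hairpin 2) and 1.67 and 1.73 (control hairpin 1).

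HSPA2, an HSP70 best known from the testis, had the largest fall of the family at low counts. It stood at 4.71 and 2.86 CPM with the TARDBP hairpin, against 23.1 and 32.4 CPM with control hairpin 2 and 7.49 and 8.13 CPM with control hairpin 1. The 3 groups did not overlap, and control hairpin 2 stood far above the others. The log2 change was -2.87 ± 0.25 against control hairpin 2 (adjusted p = 6.23e-05) and -1.05 ± 0.26 against control hairpin 1 (adjusted p = 0.0124). The second call was lost without replicate 2 of the TARDBP hairpin (adjusted p = 0.0671) or of control hairpin 1 (adjusted p = 0.0542).

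HSPH1, an HSP110 that recharges HSP70, fell by 0.42 in log2 against the mean of both controls (SE 0.07, adjusted p = 0.00173). HSPA8, the constitutive HSP70 and the most highly counted of the family, was called lower against control hairpin 2 (log2 change -0.52). Against control hairpin 1 it was not called (-0.12, adjusted p = 0.409). Against the mean of both controls its log2 change was -0.32 and it was called lower (adjusted p = 0.0219). That HSPA8 call was lost without replicate 1 (adjusted p = 0.0823) or 2 (adjusted p = 0.139) of the TARDBP hairpin. The mitochondrial HSP70 HSPA9 (log2 change -0.17, adjusted p = 0.0886) and the HSP110 HSPA4 (-0.02, adjusted p = 0.818) were not called against the mean of both controls. HSPA4 was called lower against control hairpin 2 (-0.24, adjusted p = 0.0436), and 1 of 12 other analyses kept that call.

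Both cytosolic HSP90 genes were lower. HSP90AA1, the inducible form, stood at 626 and 708 CPM with the TARDBP hairpin, 980 and 937 CPM with control hairpin 2, and 938 and 910 CPM with control hairpin 1. The log2 change was -0.50 ± 0.08 against the mean of both controls (adjusted p = 0.0016) and nearly equal against each control, -0.52 and -0.47. HSP90AB1, the constitutive form, fell by 0.75 in log2 against control hairpin 2 and by 0.35 against control hairpin 1. The call against control hairpin 1 was lost without replicate 1 (adjusted p = 0.0506) or 2 (adjusted p = 0.078) of the TARDBP hairpin, with log2 changes of -0.38 and -0.33. TRAP1, the mitochondrial HSP90, was not called against the mean of both (log2 change -0.10, adjusted p = 0.538).

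The HSP40 genes went both ways against the mean of both controls, with 3 (37.5%) lower, 1 (12.5%) higher and 4 not called of the 8 tested. Of everything tested, 24.3% were lower and 23.9% higher. DNAJA1, a cytosolic HSP40 that can carry a farnesyl anchor, stood at 104 and 116 CPM with the TARDBP hairpin, against 193 and 193 CPM with control hairpin 2 and 166 and 180 CPM with control hairpin 1. DNAJB6, a strong suppressor of polyglutamine aggregation, stood at 79.0 and 84.6 CPM with the TARDBP hairpin, against 142 and 132 CPM with control hairpin 2 and 132 and 126 CPM with control hairpin 1. In both genes the TARDBP hairpin libraries lay below every control library. Their log2 changes were -0.73 ± 0.08 (adjusted p = 0.000229) and -0.70 ± 0.08 (adjusted p = 0.000211).

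DNAJB4 was the one chaperone gene higher against each control. It stood at 40.7 and 43.7 CPM with the TARDBP hairpin, against 33.1 and 29.02 CPM with control hairpin 2 and 13.2 and 15.3 CPM with control hairpin 1. The groups did not overlap, and control hairpin 1 lay far below the rest. The log2 change was 1.57 ± 0.13 against control hairpin 1 (adjusted p = 4.71e-05) and 0.44 ± 0.12 against control hairpin 2 (adjusted p = 0.0151). The second call was lost without replicate 2 of the TARDBP hairpin (adjusted p = 0.081) or of control hairpin 2 (adjusted p = 0.138).

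DNAJB2, which is enriched in neurons and sorts clients to the proteasome, stood at 31.4 and 33.0 CPM with the TARDBP hairpin, 37.6 and 34.7 CPM with control hairpin 2, and 55.6 and 54.8 CPM with control hairpin 1. It fell by 0.78 in log2 against control hairpin 1 (adjusted p = 0.000397), and against control hairpin 2 the change was -0.17 (adjusted p = 0.181). DNAJB1, the classic heat-inducible HSP40, was not called (log2 change -0.12, adjusted p = 0.44). DNAJA2 (0.09), the mitochondrial DNAJA3 (-0.02) and DNAJB5 (-0.05) were not called either.

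**Figure D2:**
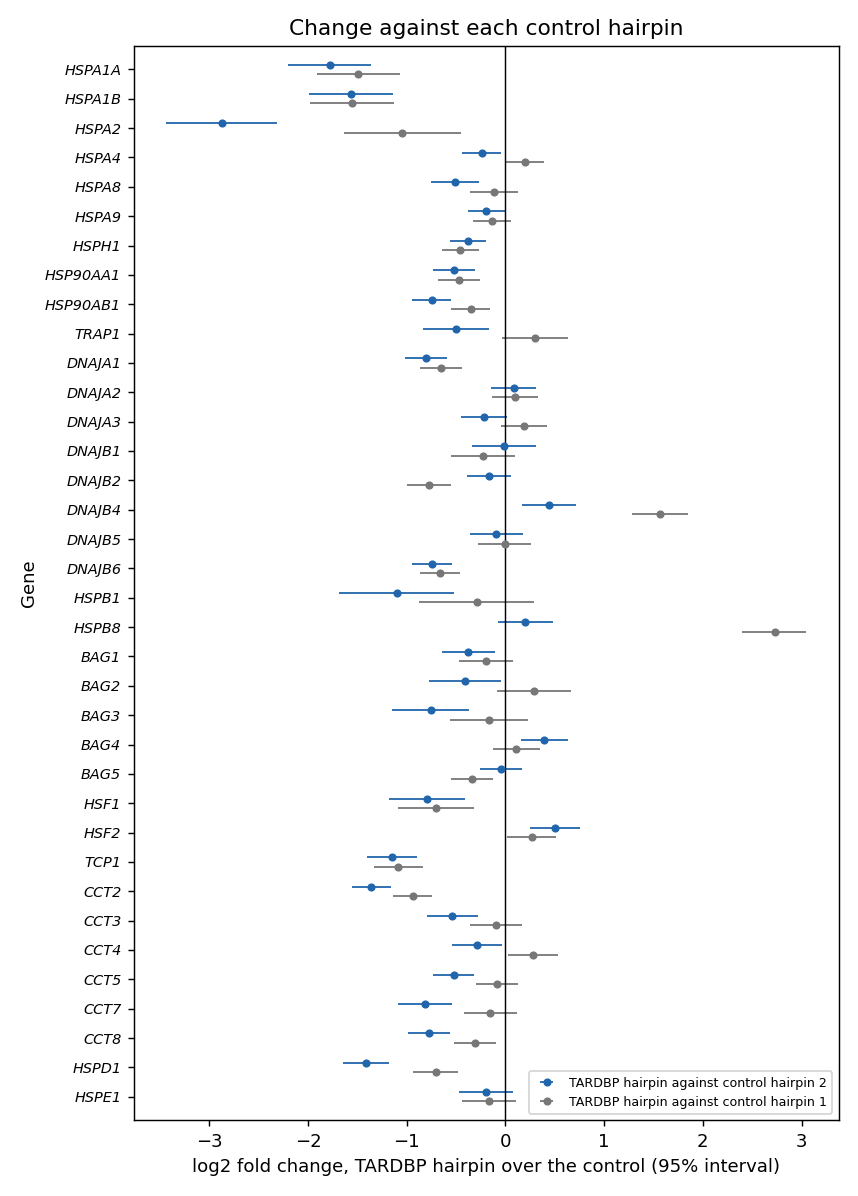
Log2 fold change of 36 chaperone genes with the TARDBP hairpin over control hairpin 2 (blue) and over control hairpin 1 (grey), with 95% intervals from the fit; CRYAB is left out because it had no count with control hairpin 1, and DNAJA4 was not tested. HSPA1A, HSPA1B, HSP90AA1, DNAJA1, DNAJB6, HSF1 and TCP1 have overlapping intervals against either control, while HSPB8, DNAJB4 and HSPA2 lie far apart.

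The changes of the small heat shock proteins depended on the control. HSPB8, which works with BAG3 to hand misfolded proteins to autophagy, stood at 27.6 and 27.8 CPM with the TARDBP hairpin, 26.1 and 22.1 CPM with control hairpin 2, and 4.03 and 4.31 CPM with control hairpin 1. The TARDBP hairpin libraries lay just above those of control hairpin 2 and far above those of control hairpin 1. HSPB8 was 6.63-fold higher than with control hairpin 1 (log2 change 2.73 ± 0.14, adjusted p = 8.19e-06), and against control hairpin 2 the log2 change was 0.20 (95% interval -0.08 to 0.48, adjusted p = 0.201). CRYAB, or alpha B-crystallin, was counted 49 and 34 times with the TARDBP hairpin, against 77 and 71 times with control hairpin 2 and 0 times in both libraries with control hairpin 1.

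With a floor of 3 counts per library, CRYAB was at least 14.4-fold higher with the TARDBP hairpin than with control hairpin 1. The quasi-likelihood test on the counts themselves gave adjusted p = 0.000208, which is not a test of that bound. Against control hairpin 2 CRYAB was lower, with a log2 change of -0.78 ± 0.27 (adjusted p = 0.046). That CRYAB call was lost without replicate 2 of the TARDBP hairpin or either replicate of control hairpin 2 (adjusted p from 0.0797 to 0.214). CRYAB was thus the one gene called in opposite directions by the 2 controls, and its call as higher than the mean of both averages opposite changes.

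HSPB1 (HSP27), which caps and stabilises actin and holds unfolded clients, stood at 120 and 87.1 CPM with the TARDBP hairpin, 177 and 268 CPM with control hairpin 2, and 99.3 and 155 CPM with control hairpin 1. Replicates differed widely, and the TARDBP hairpin libraries overlapped those of control hairpin 1. It fell by 1.10 in log2 against control hairpin 2 (SE 0.26, adjusted p = 0.00768), a call lost without replicate 2 of the TARDBP hairpin (adjusted p = 0.0524). Its call against the mean of both controls (-0.70, adjusted p = 0.0326) was lost without replicate 2 of any of the 3 hairpins (adjusted p = 0.21 without that of the TARDBP hairpin, 0.0634 without that of control hairpin 2 and 0.0723 without that of control hairpin 1).

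In the BAG family, BAG3, the stress-induced partner of HSPB8, stood at 13.1 and 10.6 CPM with the TARDBP hairpin, 18.7 and 21.4 CPM with control hairpin 2, and 11.6 and 14.98 CPM with control hairpin 1. It was lower than the mean of both controls (-0.46, adjusted p = 0.034), a call lost without replicate 2 of the TARDBP hairpin (adjusted p = 0.216), of control hairpin 2 (adjusted p = 0.0708) or of control hairpin 1 (adjusted p = 0.0809). The ratio of HSPB8 to BAG3 was 2.11 and 2.62 with the TARDBP hairpin, against 1.39 and 1.04 (control hairpin 2) and 0.348 and 0.288 (control hairpin 1). The pair was chosen with these values known, and the ratio is given as a description.

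BAG4, which restrains death receptor signalling, was higher by 0.25 on the log2 scale (adjusted p = 0.0443), a call lost without replicate 1 of the TARDBP hairpin (adjusted p = 0.335) or without any single control library (adjusted p from 0.0879 to 0.125). BAG1, which links HSP70 to the proteasome (log2 change -0.28, adjusted p = 0.0505), and BAG5 (-0.19, adjusted p = 0.085) were not called against the mean of both controls. Nor was BAG2, an inhibitor of the ubiquitin ligase CHIP (-0.06, adjusted p = 0.739). BAG1 was called lower against control hairpin 2 (-0.37, adjusted p = 0.0287) and BAG5 against control hairpin 1 (-0.34, adjusted p = 0.0191). Both single-control calls were lost with upper quartile scaling (adjusted p = 0.142 and 0.0706).

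The message of HSF1 itself was lower. It stood at 36.1 and 28.7 CPM with the TARDBP hairpin, against 47.9 and 64.1 CPM with control hairpin 2 and 48.6 and 57.1 CPM with control hairpin 1. No control library reached down to the TARDBP hairpin libraries, and the 2 control hairpins overlapped each other. HSF1 fell by 0.75 in log2 against the mean of both (SE 0.15, adjusted p = 0.00387). Against control hairpin 1 alone the call was lost without replicate 2 of the TARDBP hairpin (adjusted p = 0.0635) or of control hairpin 1 (adjusted p = 0.0608).

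HSF2, which can pair with HSF1 and acts in development, stood at 26.2 and 28.4 CPM with the TARDBP hairpin, 19.8 and 18.8 CPM with control hairpin 2, and 22.1 and 23.3 CPM with control hairpin 1. Both TARDBP hairpin libraries lay above all others. Its log2 change of 0.38 ± 0.09 against the mean of both controls (adjusted p = 0.0101) was no longer called without replicate 2 of the TARDBP hairpin (adjusted p = 0.0843).

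All 6 genes with the 3-unit heat shock element in their windows were called lower against the mean of both controls. The call of HSPA8 was lost without either TARDBP hairpin library, and against control hairpin 1 alone HSPA8 was not called. Of the 17 tested genes with the 2-unit motif, which include those 6, 11 were lower and 2 higher, and of the 17 without it 8 were lower and 1, HSF2, was higher. Among everything tested, 24.3% were lower and 23.9% higher. HSPE1, which was not called, counted as without the motif, yet the HSPD1 element lies close by, outside the HSPE1 window. In GRCh38.p14 that element lies within chr2:197500061-197500090, between the HSPD1 starts at 197499840 and 197500274, and HSPE1 starts at 197500379. Whether the element acts on HSPD1, on HSPE1, on both or on neither was not tested. DNAJB1, with 3 separate 2-unit motifs over its windows, was not called. This is a description of genes chosen with their results known, and no test was made of it.

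**Figure D3:**
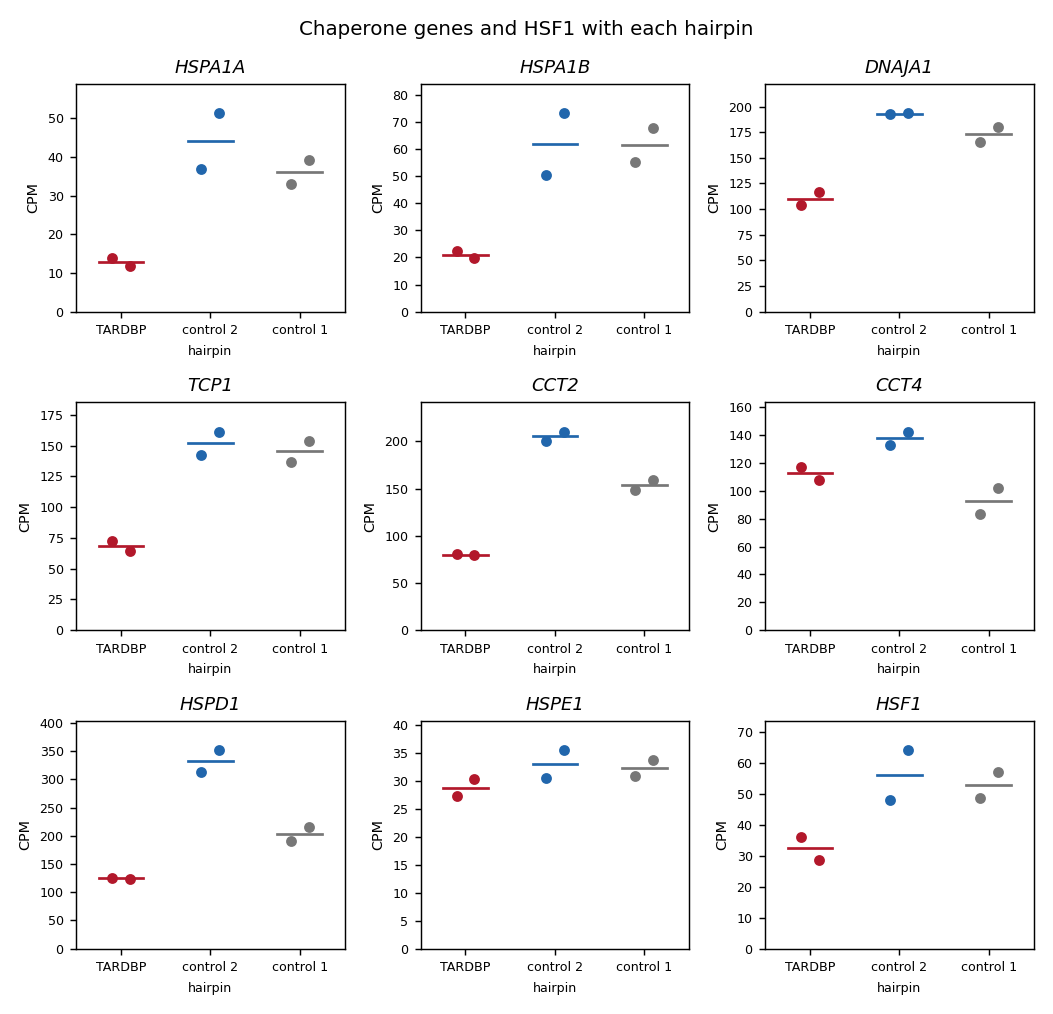
CPM of 9 genes in each library (points) with the mean of each hairpin (bars), the TARDBP hairpin in red, control hairpin 2 in blue and control hairpin 1 in grey; each panel has its own axis from 0. HSPA1A, HSPA1B, DNAJA1, TCP1, CCT2, HSPD1 and HSF1 lie lower with the TARDBP hairpin than with either control, CCT4 lies between the controls, and HSPE1 differs little.

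TRiC subunits did not fall as 1 block, although each TRiC ring holds one copy of every subunit. Of the 7 genes, 6 were lower against the mean of both controls and 0 were higher, where 24.3% and 23.9% of everything tested were. TCP1, the founding subunit, stood at 72.6 and 64.5 CPM with the TARDBP hairpin, against 143 and 161 CPM with control hairpin 2 and 137 and 154 CPM with control hairpin 1. CCT2 stood at 81.0 and 79.3 CPM with the TARDBP hairpin, against 201 and 210 CPM with control hairpin 2 and 148 and 160 CPM with control hairpin 1. For both genes the TARDBP hairpin libraries lay far below every control library. Their log2 changes were -1.12 ± 0.10 (adjusted p = 6.76e-05) and -1.15 ± 0.08 (adjusted p = 2.04e-05).

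CCT4 behaved otherwise, at 117 and 108 CPM with the TARDBP hairpin, 133 and 142 CPM with control hairpin 2, and 83.7 and 102 CPM with control hairpin 1. The TARDBP hairpin libraries of CCT4 lay between the controls, and its log2 change was -0.01 (95% interval -0.23 to 0.22, adjusted p = 0.965). The ratio of TCP1 to CCT4 was 0.620 and 0.597 with the TARDBP hairpin, against 1.07 and 1.13 (control hairpin 2) and 1.64 and 1.51 (control hairpin 1). The ratio of CCT2 to CCT4 was 0.691 and 0.734 with the TARDBP hairpin, against 1.51 and 1.48 (control hairpin 2) and 1.77 and 1.57 (control hairpin 1). Neither ratio overlapped between the TARDBP hairpin and either control. These pairs were chosen with their values known and the control hairpins differed from each other, so the ratios are a description.

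The other subunits fell less. CCT8 was lower against each control, by 0.77 and 0.31 in log2 against control hairpins 2 and 1. Its second call was lost without replicate 1 (adjusted p = 0.0804) or 2 (adjusted p = 0.113) of the TARDBP hairpin or replicate 2 of control hairpin 1 (adjusted p = 0.142). CCT7 (-0.81), CCT3 (-0.54) and CCT5 (-0.52) were called lower against control hairpin 2 and not against control hairpin 1. Their calls against the mean of both controls were lost without replicate 2 of the TARDBP hairpin, at adjusted p = 0.0585, 0.19 and 0.0887. For CCT3 and CCT5 they were also lost without replicate 1 of the TARDBP hairpin (adjusted p = 0.0561 and 0.059), and for CCT3 without replicate 2 of control hairpin 2 (adjusted p = 0.0534) or of control hairpin 1 (adjusted p = 0.06).

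The 2 genes of the mitochondrial chaperonin came apart as well. HSPD1 stood at 126 and 124 CPM with the TARDBP hairpin, against 313 and 351 CPM with control hairpin 2 and 191 and 216 CPM with control hairpin 1. The 3 hairpins formed 3 separate levels. HSPD1 fell by 1.41 in log2 against control hairpin 2 (SE 0.10, adjusted p = 2.5e-05) and by 0.71 against control hairpin 1 (SE 0.10, adjusted p = 0.000779).

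HSPE1 stood at 27.3 and 30.3 CPM with the TARDBP hairpin, 30.5 and 35.5 CPM with control hairpin 2, and 30.9 and 33.7 CPM with control hairpin 1. The TARDBP hairpin libraries were the lowest by a small margin, and its log2 change was -0.18 (95% interval -0.42 to 0.06, adjusted p = 0.179). The genes lie head to head on chromosome 2, and in GRCh38.p14 the start of HSPE1 is 105 and 539 bases from the 2 annotated starts of HSPD1. The ratio of HSPD1 to HSPE1 was 4.60 and 4.09 with the TARDBP hairpin, against 10.3 and 9.90 (control hairpin 2) and 6.16 and 6.41 (control hairpin 1).

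The chaperones also differed between the 2 control hairpins, in whose cells TARDBP was not targeted. Of the 37 genes 21 were called, where 43.2% of everything tested were. With control hairpin 2, 19 were higher and 2 lower than with control hairpin 1, where 22.8% and 20.4% of everything tested were. The median log2 difference of the 37 was 0.40 and that of everything tested -0.01. Of the 7 TRiC genes 6 were higher, TCP1 being the exception. HSPD1 was higher by 0.71 (adjusted p = 0.000924), CCT7 by 0.66 (adjusted p = 0.00284) and TRAP1 by 0.80 (adjusted p = 0.00312).

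TRAP1 stood at 83.0 and 91.4 CPM with control hairpin 2 and 45.5 and 54.3 CPM with control hairpin 1, and at 70.0 and 52.9 CPM with the TARDBP hairpin. CCT7 stood at 187 and 219 CPM with control hairpin 2 and 119 and 138 CPM with control hairpin 1, and at 123 and 108 CPM with the TARDBP hairpin. For TRAP1 and CCT7, then, the TARDBP hairpin libraries overlapped those of control hairpin 1 and lay below those of control hairpin 2. BAG2 stood at 22.7 and 28.3 CPM with control hairpin 2 and 13.7 and 17.8 CPM with control hairpin 1, a log2 difference of 0.70 (adjusted p = 0.00887) that lost its call without replicate 2 of control hairpin 2 (adjusted p = 0.0665) or replicate 1 of control hairpin 1 (adjusted p = 0.0672). With the TARDBP hairpin BAG2 stood at 19.3 and 19.1 CPM, between the controls.

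The largest differences between the controls were those of CRYAB and HSPB8. With the floor of 3 counts, CRYAB was at least 24.7-fold higher with control hairpin 2. The quasi-likelihood test on its counts, not on that bound, gave adjusted p = 0.000128. HSPB8 was 5.77-fold higher with control hairpin 2 (adjusted p = 2.14e-05). HSPA2 was higher by 1.83 (adjusted p = 0.000535) and DNAJB4 by 1.12 (adjusted p = 0.000329) on the log2 scale. HSPB1 was higher by 0.81 (adjusted p = 0.032) and BAG3 by 0.59 (adjusted p = 0.022). Both of the last calls were lost without replicate 2 of control hairpin 2 (adjusted p = 0.212 and 0.125) or replicate 1 of control hairpin 1 (adjusted p = 0.189 and 0.145). The 2 lower genes were DNAJB2, by 0.61 (adjusted p = 0.00158), and BAG5, whose call was lost when any control library was left out (adjusted p from 0.0835 to 0.171).

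HSPA1A, HSPA1B, HSP90AA1, DNAJA1, DNAJB6, HSPH1, HSF1, TCP1 and HSPE1 were among the 16 genes not called between the controls. Replicates 2 of control hairpin 2 and 1 of control hairpin 1 each bore on this comparison, and the 19 higher genes became 13 without either of them.

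**Figure D4:**
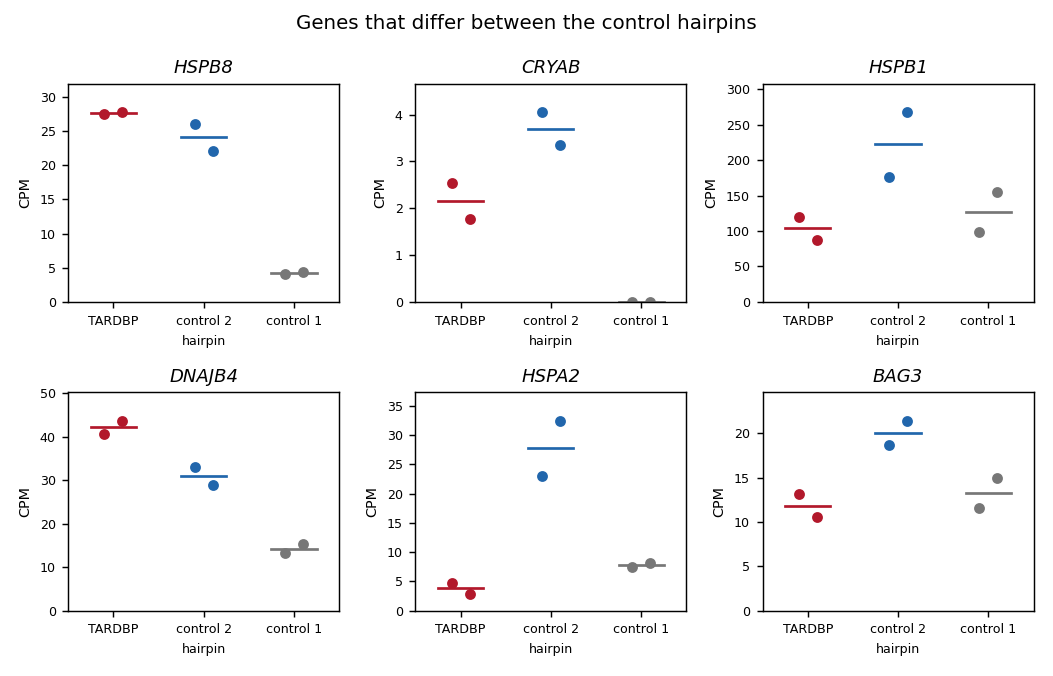
CPM of 6 genes that differed between the control hairpins, in each library (points) with the mean of each hairpin (bars), the TARDBP hairpin in red, control hairpin 2 in blue and control hairpin 1 in grey; each panel has its own axis from 0. HSPB8, CRYAB and DNAJB4 lie lowest with control hairpin 1, and HSPA2, HSPB1 and BAG3 lie highest with control hairpin 2.

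Proliferation genes moved with these differences. The summed level of 14 of them was 281 and 301 CPM with the TARDBP hairpin, 1110 and 1190 CPM with control hairpin 2, and 362 and 431 CPM with control hairpin 1. Of the 14, 13 were lower with the TARDBP hairpin than the mean of both controls, where 24.3% of everything tested were. Against control hairpin 2 alone, 14 were lower, where 26.2% of everything tested were. Against control hairpin 1 alone, 10 were lower, 1 was higher and 3 were not called, where 21.8% and 21.1% of everything tested were lower and higher. All 14 were higher with control hairpin 2 than with control hairpin 1, where 22.8% of everything tested were. The share of counts on repeat families was 25.7% and 24.7% with the TARDBP hairpin, against 20.6% and 20.9% (control hairpin 2) and 23.4% and 24.8% (control hairpin 1). The part of either in the chaperone levels was not tested.

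Other chaperone genes and partners, 106 in 7 lists, were read against the mean of both controls. Of 97 tested, 34 (35.1%) were lower and 17 (17.5%) higher, with a median log2 change of -0.12, where 24.3% and 23.9% of everything tested were lower and higher. Among 17 co-chaperones of HSP90, 8 (47.1%) were lower and 2 (11.8%) higher. FKBP4, an HSP90-bound prolyl isomerase of steroid receptor complexes, fell by 0.73 on the log2 scale, and CDC37, which brings kinases to HSP90, by 0.63. PPID was lower by 0.63 and, of the single controls, was called against control hairpin 2 alone. FKBP5, the counterpart of FKBP4 in those complexes, stood at 10.35 and 9.92 CPM with the TARDBP hairpin, against 10.84 and 10.55 CPM with control hairpin 2, and was called higher than the mean of both (0.72) through control hairpin 1, against which it was higher by 1.53. CHORDC1 was higher by 0.28, with control hairpin 1 again the one single control it was called against, a call lost without replicate 2 of the TARDBP hairpin (adjusted p = 0.257), replicate 1 of control hairpin 1 (adjusted p = 0.0834) or either replicate of control hairpin 2 (adjusted p = 0.0655 and 0.106).

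Of 11 other HSP70 genes and partners, 5 (45.5%) were lower and 4 (36.4%) higher. Without replicate 2 of the TARDBP hairpin 3 were lower, and without either TARDBP hairpin library or replicate 1 of either control 2 were higher. HSPBP1, a nucleotide exchange factor of HSP70, fell by 1.32 on the log2 scale and SGTA, which handles tail-anchored proteins, by 1.07. SGTB was lower by 0.57, a call lost without replicate 2 of the TARDBP hairpin (adjusted p = 0.0541). HSPA13 was higher by 0.69 and ST13, the HSP70-interacting protein Hip, by 0.62. HSPA4L was higher by 0.33 and, of the single controls, was called against control hairpin 1 alone, and its call was lost without either TARDBP hairpin library or without replicate 1 of either control (adjusted p from 0.0531 to 0.0818).

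Of 24 other HSP40 genes, 4 (16.7%) were lower and 5 (20.8%) higher, shares below those of everything tested, and 2 were lower without either TARDBP hairpin library. DNAJC22 rose by 2.57 on the log2 scale at low counts. It had 39 and 50 counts with the TARDBP hairpin, against 2 and 12 (control hairpin 2) and 9 and 8 (control hairpin 1). DNAJB14, an HSP40 of the endoplasmic reticulum membrane, rose by 0.77. DNAJC9, a histone chaperone, fell by 0.52. DNAJC28 (0.65), DNAJB12 (-0.42) and DNAJC5 (-0.31) were called, and all of these 3 lost the call when 1 library was left out. The value of DNAJC28 averages unlike changes, 1.60 against control hairpin 2 (adjusted p = 0.00122) and -0.29 against control hairpin 1 (adjusted p = 0.299). That of DNAJC5 came from control hairpin 1 (-0.52), and against control hairpin 2 the change was -0.09 (adjusted p = 0.404). For DNAJB12 that library was replicate 2 of the TARDBP hairpin (adjusted p = 0.0893), for DNAJC5 replicate 1 (adjusted p = 0.0863), and for DNAJC28 replicate 1 (adjusted p = 0.165) or any control library. Of 2 other small heat shock proteins tested, HSPB7, best known from muscle, fell by 2.31.

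Prefoldin and its tubulin-folding partners showed little net direction, with 2 (14.3%) lower and 3 (21.4%) higher of 14, and 1 lower without replicate 2 of the TARDBP hairpin. The tubulin cofactor TBCD fell by 0.47 on the log2 scale. The 3 higher genes, PFDN6 (0.75), PDCL (0.55) and the prefoldin subunit VBP1 (0.41), were called against control hairpin 1 and not against control hairpin 2. PFDN6 was higher by 1.75 against control hairpin 1, and against control hairpin 2 its log2 change was -0.25 (adjusted p = 0.204). PDCL was higher by 1.02 against control hairpin 1, and against control hairpin 2 its log2 change was 0.08 (adjusted p = 0.678), or -0.14 without replicate 2 of control hairpin 2. Both calls were lost with the control libraries pooled (adjusted p = 0.689 and 0.384). TBCC was lower by 0.53, a call lost without replicate 2 of the TARDBP hairpin (adjusted p = 0.0525). The call of VBP1 was lost without either TARDBP hairpin library (adjusted p = 0.0615 and 0.102) or replicate 2 of control hairpin 2 (adjusted p = 0.0691).

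Of 15 genes of mitochondrial import and protein quality control, 6 (40%) were lower and 1 (6.67%) higher, and without replicate 2 of the TARDBP hairpin 3 were lower. CLPP, the matrix protease, fell by 1.03 on the log2 scale. The mitochondrial disaggregase CLPB (-0.64) and TIMM44 (-0.59), which tethers mitochondrial HSP70 to the import channel, were lower, and both calls were lost without replicate 2 of the TARDBP hairpin (adjusted p = 0.0518 and 0.0669). DNAJC15 rose by 0.95. Of 14 chaperones of the endoplasmic reticulum, 8 (57.1%) were lower and 2 (14.3%) higher, with DNAJB11 at -1.26, SDF2L1 at -1.23 and HYOU1 at -0.87. SDF2L1 was called against control hairpin 2 and not against control hairpin 1 (-0.68, adjusted p = 0.0847, or 0.029 without replicate 1 of control hairpin 1). The 2 higher genes were DNAJC3 (0.26) and DNAJC10 (0.25), both called against control hairpin 2 and not against control hairpin 1, and without replicate 2 of the TARDBP hairpin, replicate 1 of control hairpin 1 or replicate 2 of control hairpin 2 none of this list was higher.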

How the data were processed

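Genes were measured by RNA-seq in 6 libraries of SH-SY5Y cells. The deposited files hold raw counts, 1 file per library, for 27961 genes and 992 repeat families. Per the submitters' processing notes, the authors' tools were bcl2fastq and STAR 2.5.2b, and the build was hg19. The counter, its annotation and strand setting and its handling of multi-mapped reads were not given in the sources used here, and genes that overlap or share sequence, such as HSPA1A and HSPA1B, cannot be separated firmly.

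Both kinds of feature went into 1 analysis (R 4.3.3, edgeR 4.0.16). Of 28953, 17163 passed filterByExpr (minimum count 10, minimum total count 15), 16202 of them genes. After TMM scaling, 1 quasi-likelihood model with 3 hairpin groups was fitted to the counts, with 3 residual and 5.41 prior degrees of freedom. The biological coefficient of variation was 10.5%. Benjamini-Hochberg adjustment ran over everything tested, an adjusted p below 0.05 was a call, and standard errors are the absolute log2 change over the square root of F. Replicates were separate libraries (chi-square per degree of freedom 18.0 to 20.8). Totals of 18605745 to 21698339 counts leave few chaperone genes limited by depth. An exact permutation test of each ratio, 2 libraries against 4, could not go below p = 0.133, so ratios of genes are given as a description.

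The members, lists and tests were chosen with earlier results of these data known. Values in every library are given for members called with a log2 change of at least 0.58 in size against the mean of both controls or between the controls, and for HSF1, HSF2, HSPA1A and HSPA1B. HSPH1, HSP90AA1, CCT4 and HSPE1 were added after their values were seen. Of each other list up to 3 called genes per direction are named. Alternatives were other scalings, no filter, genes alone, DESeq2 1.42.0, pooled controls, a replicate block and leaving out each library. The code was tested on simulated counts. Promoter windows came from RefSeq (GRCh38.p14), and the coding sequences compared from GENCODE 29.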

Additional observations from a re-analysis of the deposited data

How the results depend on the processing

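With 2 libraries a group, 1 hairpin against TARDBP and 3 residual degrees of freedom, small changes could not be settled; CRYAB, DNAJA4 and HSPA2 are limited by depth. Of 1105 values of called chaperone genes under the alternatives, 989 stayed called, 116 lost the call and 0 turned sign. Of 663 values for all called genes of the other lists, named here or not, 98 lost the call and 0 turned sign. With the controls pooled as 1 group, the 25 called genes became 10, the 20 lower ones 10 and the 5 higher ones 0. The lower genes of the other lists then numbered 1 of the 8 HSP90 co-chaperones, 2 of 5 other HSP70 genes, 1 of 4 other HSP40 genes, 1 of 2 prefoldin partners, 0 of 6 mitochondrial and 2 of 8 endoplasmic reticulum genes. Their higher genes then numbered 0 of 2 HSP90 co-chaperones, 1 of 4 other HSP70 genes, 2 of 5 other HSP40 genes, 0 of 3 prefoldin partners, 1 of 1 mitochondrial and 0 of 2 endoplasmic reticulum genes. Upper quartile scaling moved the median of everything tested by over 0.1, to 0.17, and raised the genes higher than with control hairpin 1 to 6, where TMM gave 3. DESeq2 left 1 of the 2 genes lower with control hairpin 2 than with control hairpin 1. Leaving out 1 library gave 18 to 24 called genes against the mean of both controls (14 to 20 lower, 4 higher each time), 15 to 18 against control hairpin 1 (11 to 15 lower, 3 to 4 higher) and 19 to 27 against control hairpin 2 (18 to 24 lower). Higher genes against control hairpin 2 ran from 0 to 3, with 0 without replicate 2 of control hairpin 2. Between the controls the range was 14 to 21, with 13 to 19 higher and 1 to 2 lower. Summed HSPA1A and HSPA1B stayed called throughout, at -1.71 to -1.47.

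Of genes not called against the mean of both controls, some turned to positive log2 changes. With upper quartile scaling these were HSPA4 (0.101), TRAP1 (0.0232), DNAJA3 (0.107), DNAJB1 (0.00143), DNAJB5 (0.0739), BAG2 (0.0621) and CCT4 (0.118), and with genes alone HSPA4 (0.00489), DNAJA3 (0.0116) and CCT4 (0.022). Leaving out 1 library gave HSPA4 values from -0.0921 to 0.0381, TRAP1 from -0.321 to 0.0855, DNAJA3 from -0.0657 to 0.0265, BAG2 from -0.155 to 0.0325 and CCT4 from -0.0781 to 0.061. The positive ends came without replicate 1 of the TARDBP hairpin (DNAJA3), without its replicate 2 (HSPA4 and TRAP1) or without replicate 2 of control hairpin 1 (BAG2 and CCT4). Against control hairpin 2 alone, DNAJC5 turned to 0.0529 with upper quartile scaling, and PDCL ran from -0.143 to 0.286 when 1 library was left out. Of 552 uncalled values in the other comparisons, 34 turned sign and 16 became called. The cause of these moves was not tested.

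Whether the replicate numbers pair the libraries could not be settled with 2 libraries a group. Deviations of same-numbered libraries from their group means correlated at -0.228 between the TARDBP hairpin and control hairpin 1, -0.247 between the TARDBP hairpin and control hairpin 2, and 0.232 between the controls. With the replicate number as a block, 23 chaperone genes were called against the mean of both controls (19 lower and 4 higher), 26 against control hairpin 2 and 18 against control hairpin 1. Between the controls the block gave 20, of which 1 was lower, and summed HSPA1A and HSPA1B stood at -1.57.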
